A study of Mus musculus with 2 samples.

Results

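The matrix metalloproteinases, their ADAM, ADAMTS and ADAMTS-like relatives and the 4 tissue inhibitors (TIMPs) were compared between cultured bone marrow cells of Cpdm and wildtype mice. Members were taken by gene symbol from the deposited array table, as every probe set annotated to exactly 1 gene named Mmp or Adam plus a number, Adamts or Timp1 to Timp4. This gave 124 of 34945 such probe sets, which stand for 70 of 18193 genes: 18 MMP, 28 ADAM, 15 ADAMTS, 5 ADAMTS-like and 4 TIMP genes. A further 15 symbols of the same pattern, among them Adamts2, Adamts13, Adamts14, Mmp15 and Mmp25, were not analysed here. Cpdm is the chronic proliferative dermatitis mutation of mice, which disrupts Sharpin, a gene whose product belongs to the linear ubiquitin ligase. Unsorted marrow cells of each genotype, wildtype and Cpdm, were cultured for 10 days in medium that held ascorbic acid at 50 µg/ml plus β-glycerophosphate at 10 mM, additives that favour mineralised bone matrix, and no other agent is named for either genotype. Each genotype was measured on 1 Affymetrix array from 5 µg of total RNA. The strain, age, sex and number of mice behind each culture were not stated in the labels.

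Metalloproteinases are enzymes with a zinc ion in the active site. MMPs cut collagens and other matrix proteins outside the cell, ADAMs are membrane proteins of which some release growth factors and cytokines from the cell surface, and ADAMTS enzymes are secreted and cut proteoglycans, procollagens and other matrix proteins. ADAMTS-like proteins share the matrix-binding part of ADAMTS enzymes and have no protease domain. TIMPs bind the active site of these enzymes and block them. In bone, osteoblasts, osteoclasts and macrophages all make members of these families, and the matrix that osteoblasts lay down is remodelled by them.

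Values are MAS5 signals, a linear brightness scaled to the same trimmed mean in both arrays, and a difference is the log2 ratio of the Cpdm over the wildtype signal. Signals below the 40th percentile of an array, 18.5 in Cpdm and 18.7 in wildtype, were set to that floor, and a gene was counted as measured if it reached the floor in at least 1 array. Where a gene had several probe sets, the leading one, brightest on average over both arrays after flooring, stands for it unless another is named. Signals of different genes are not compared, because probe sets differ in how strongly they bind. Replicate error could not be estimated from 1 array for each genotype, so no test was run, and differences were counted by a fixed size of 2-fold. Among 5250 genes with several probe sets, the disagreement between probe sets gave a robust SD of 0.32 log2 units for 1 probe set, and 18 spike-in controls had log2 ratios from -0.22 to 0.20. The arrays also differed in 3 controls for 18S ribosomal RNA, with log2 ratios from -3.75 to -2.37, in the actin 3′ to 5′ signal ratio, at 1.92 in Cpdm and 1.61 in wildtype, and in the sex-linked Xist, at 1113 and 247, and Uty, at 42.9 and 162. The part of these differences in the values below was not tested.

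Of the 70 genes, 50 were measured, 44 of them in both arrays. In the Cpdm culture 5 reached 2-fold higher, 9 reached 2-fold lower, and 36 fell short of both. The 5 are 10% and the 9 are 18% of the measured members, while 5.84% of all 14055 measured genes were at least 2-fold higher and 5.98% at least 2-fold lower. At 1.5-fold the members counted 13 higher, or 26%, and 11 lower, or 22%, beside 15.7% and 13.5% of all measured genes. The median log2 ratio of the measured members was -0.10, and that of all measured genes was 0.03. The members spread to both sides, 21 above and 29 below equal signals, with the membrane-type enzyme Mmp16, Adam12, Adamts9 and Mmp23 lowest in Cpdm and Adamtsl4, Adam22 and Timp3 highest. In unsorted cells, fewer cells of a type and less RNA per cell cannot be told apart, and the osteoblast markers given further on summed to 4933 in Cpdm against 14955 in wildtype, whose part in the member ratios was not tested. Below the floor in both arrays were 20 members, namely Mmp1a, Mmp1b, Mmp20, Adam2, Adam3, Adam6a, Adam6b, Adam7, Adam18, Adam21, Adam24, Adam25, Adam26a, Adam32, Adam34, Adamts7, Adamts8, Adamts19, Adamts20 and Adamtsl2. Most of the ADAMs among these are known from the testis and epididymis.

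**Figure D1:**
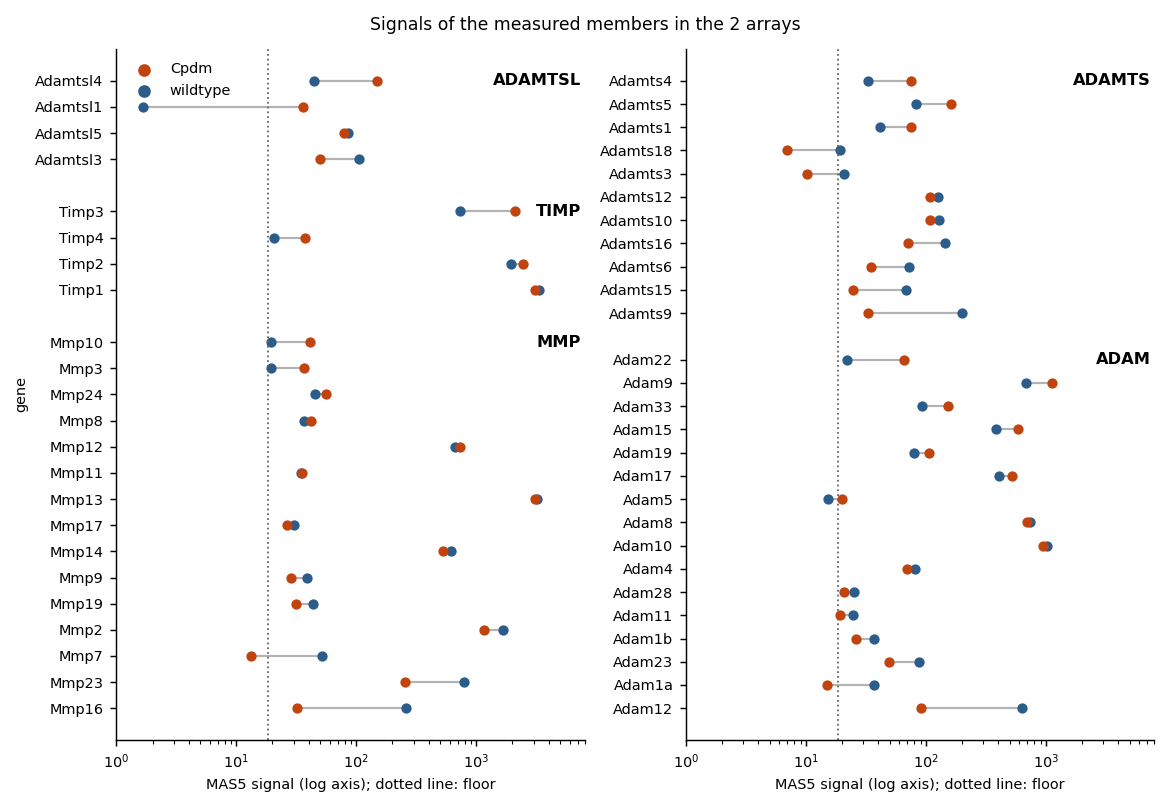
MAS5 signal of each of the 50 measured members in the Cpdm array (orange) and the wildtype array (blue), on a log axis, by subfamily, with the floor as a dotted line. Mmp16 stands at 31.9 in Cpdm and 259 in wildtype, and Timp3 at 2109 and 726, while the points of Mmp13 and Timp1 nearly coincide.

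By subfamily, the median log2 ratio was -0.19 over 15 measured MMPs, -0.11 over 16 ADAMs, -0.22 over 11 ADAMTS genes, 0.42 over 4 ADAMTS-like genes and 0.60 over 4 TIMPs. Both positive medians rest on 4 genes, and the signs for ADAMs and ADAMTS-like genes turned with a floor at the 60th percentile, at 0.36 and -0.11. Among the MMPs 1, or 6.67%, was at least 2-fold higher and 3, or 20%, lower. Among the ADAMs the counts were 1 and 1, or 6.25% each, and among the ADAMTS genes 1 and 4, or 9.09% and 36.4%. Among the 4 ADAMTS-like genes they were 1 and 1, and among the 4 TIMPs 1 and 0. Of all measured genes 5.84% were at least 2-fold higher and 5.98% lower. Both ADAM counts and the higher MMP count are thus near the background.

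**Figure D2:**
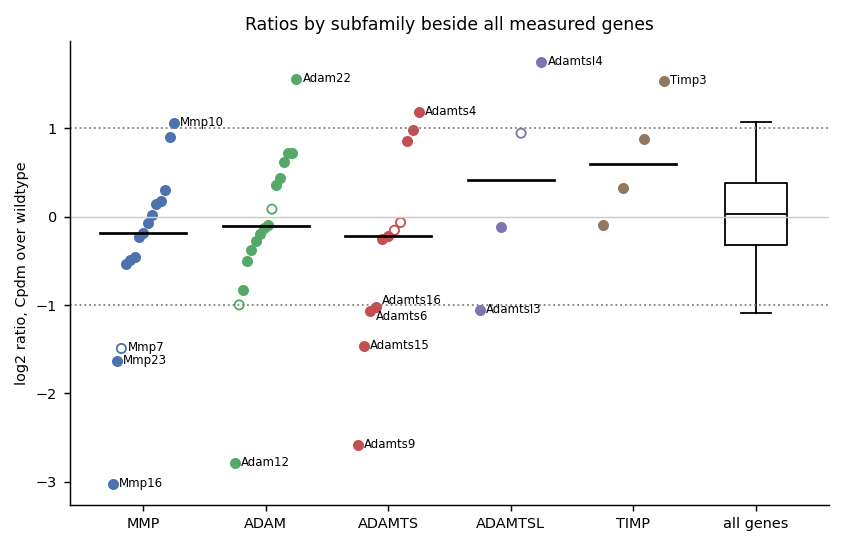
The log2 ratio of Cpdm over wildtype for each measured member by subfamily, with black lines at the medians, dotted lines at 2-fold, and open circles for members below the floor in 1 array, whose ratio is a lower bound in size. The box at the right spans the quartiles of all 14055 measured genes with whiskers at the 5th and 95th percentiles, and Mmp16, Adam12, Adamts9, Mmp23, Mmp7 and Adamts15 lie below the lower whisker.

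Collagenases, which open the triple helix of fibrillar collagen, were near equal. Mmp13, the main collagenase of rodent bone, read 3052 in Cpdm and 3211 in wildtype. Its signal lay in the top 1% of the array in both cultures, where array signals can be compressed, which was not tested. Mmp8, the collagenase of neutrophils, read 41.5 and 36.6, a 1.13-fold difference. The gelatinases, which degrade denatured collagen and basement membrane, were both below 2-fold. Mmp2, made by stromal cells, read 1162 and 1680.1, which is 1.45-fold lower in Cpdm, and its other probe set gave 1.62-fold lower. Mmp9, a gelatinase of osteoclasts and neutrophils, was near the floor at 28.3 and 38.9.

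Stromelysins and macrophage elastase showed small or no excess in Cpdm. Mmp10, a stromelysin that can activate other MMPs, read 40.9 against 19.6 and was 2.09-fold higher. Mmp3, the related stromelysin, read 36.3 against 19.5, or 1.86-fold higher. The wildtype signals of both lay just above the floor, so these folds are uncertain. Mmp11, a stromelysin of stromal cells, was equal at 34.98 and 34.45. Mmp12, the macrophage elastase, read 738 and 667, a 1.11-fold difference. Mmp7, or matrilysin, the smallest of the family, was below the floor in Cpdm at 13.3 and read 52.0 in wildtype, which is at least 2.81-fold lower in Cpdm. With the floor at the 60th percentile the bound shrank to a log2 ratio of -0.28.

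Mmp16 and Mmp23 were more than 2-fold lower in Cpdm by every one of their probe sets that was at or above both floors. Mmp16, also called MT3-MMP, is anchored in the cell membrane. It read 31.9 in Cpdm against 259 in wildtype, an 8.12-fold deficit, and its second probe set read 28.9 against 126.7, or 4.39-fold lower. Its other 2 probe sets lay under the Cpdm floor and above the wildtype one, at 7.78 against 34.1 and 7.60 against 25.04, so that all 4 went the same way. Mmp23, a membrane-bound protease with an unusual cysteine-rich tail, read 257 against 797, a 3.10-fold deficit, and 2.88-fold by its other probe set. Other membrane-type enzymes differed less. Mmp14, or MT1-MMP, the activator of pro-MMP2 at the cell surface, read 527 against 618, and its 3 probe sets ranged from 1.17-fold to 1.86-fold lower. Mmp17 was 1.14-fold lower and Mmp24 1.23-fold higher. Mmp19, a secreted MMP that is not membrane-bound, was 1.402-fold lower.

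Many MMP genes lie side by side on chromosome 9, which allows neighbours to be compared. RefSeq places 10 of them in an unbroken run, Mmp13, Mmp12, Mmp1b, Mmp3, Mmp1a, Mmp10, Mmp8, Mmp27, Mmp20 and Mmp7, of which 9 are members and 6 were measured. The promoters of this run are known for AP-1 sites, where Fos and Jun proteins bind. RefSeq promoter windows of GRCm38.p6, from 250 bases before to 50 after the start, matched 41 members with 46 windows, and both strands were searched for TGANTCA. These letters were in a window of 8 of the 9 members of the run, all but Mmp8, and of 3 of 32 members elsewhere, Adam19, Adam1b and Adam25. Of all 32851 windows 7.81% held them, beside 23.9% of the 46 member windows. Among members past 2-fold, Mmp16, Adam12, Adamts4, Adamts6, Adamts15 and Adamts16 had no window, so no letters were searched in them here or below. The stretches around the match are shown for the measured genes of the run, 5′ to 3′ on the gene's strand with the matched letters in capitals. These neighbours carry the same letters and differ in their ratios, some of which come from signals near the floor.

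Mmp13 (chr9:7272459-7272505, plus strand): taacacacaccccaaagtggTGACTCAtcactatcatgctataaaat
Mmp12 (chr9:7347310-7347356, plus strand): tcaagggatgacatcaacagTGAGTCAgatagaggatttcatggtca
Mmp3 (chr9:7445756-7445802, plus strand): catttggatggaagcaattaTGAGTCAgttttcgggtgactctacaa
Mmp10 (chr9:7502259-7502305, plus strand): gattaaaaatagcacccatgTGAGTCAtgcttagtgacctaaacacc
Mmp7 (chr9:7692007-7692053, plus strand): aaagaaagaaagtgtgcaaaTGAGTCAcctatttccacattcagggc

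The matched letters begin 35 bases before the start in Mmp13, 44 in Mmp12, 46 in Mmp3, 63 in Mmp10 and 63 in Mmp7. Mmp12 and Mmp7 have 2 windows each, and the letters lie in 1 of them. The 5 genes did not move as a group. Mmp10 was 2.09-fold higher, Mmp3 was 1.86-fold higher, Mmp12 and Mmp13 were within 1.11-fold, and Mmp7 was at least 2.81-fold lower in Cpdm. A match describes letters and does not show that a factor binds.

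**Figure D3:**
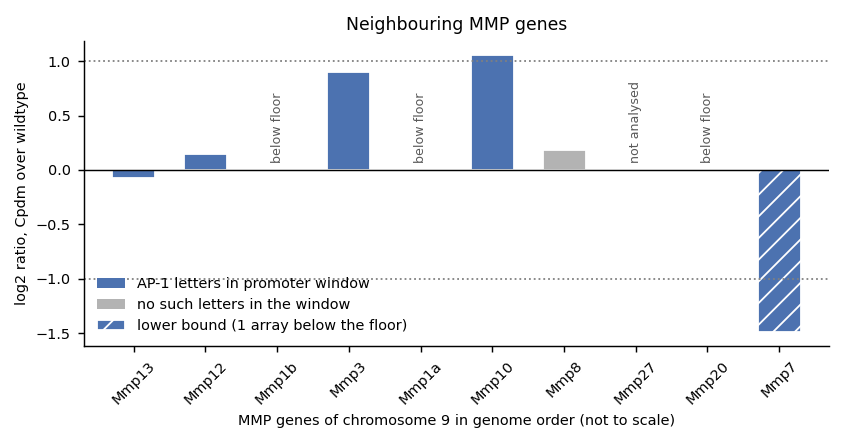
The log2 ratio of Cpdm over wildtype for the MMP genes of the chromosome 9 run in genome order, with dotted lines at 2-fold, blue where a promoter window holds TGANTCA, grey where it does not, and hatched where the ratio is a lower bound in size. Bars point up for Mmp3 and Mmp10, down for Mmp7, and stay near 0 for Mmp13, Mmp12 and Mmp8.

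The letters TGTGGT, the core that RUNX factors bind, were searched in the same way, since Runx2 is a master factor of osteoblasts and a known regulator of Mmp13. They were found in windows of 10 of 41 members, which is 21.7% of the 46 member windows, and in 16.8% of all windows. In the stretches shown they did not overlap TGANTCA, but Mmp13 and Mmp1b held both sets of letters in the same window. Adam19 and Mmp7 held them in separate windows, which belong to different annotated starts. Of these 10 members 7 were measured, and their log2 ratios ran from -1.63 to 0.61 with a median of -0.23. The stretches are shown for Mmp13, Mmp14 and Mmp23, the first 2 known from bone and the last 3.10-fold lower in Cpdm. In Mmp13 and Mmp14 the letters lie on the opposite strand and read ACCACA. Mmp23 has several annotated starts, and the letters lie in the window of 1 of them.

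Mmp13 (chr9:7272376-7272421, plus strand): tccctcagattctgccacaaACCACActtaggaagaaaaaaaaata
Mmp14 (chr14:54431464-54431509, plus strand): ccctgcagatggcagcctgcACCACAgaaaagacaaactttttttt
Mmp23 (chr4:155653536-155653581, minus strand): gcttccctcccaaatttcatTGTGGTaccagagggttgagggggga

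SHARPIN takes part in NF-κB signalling, so the windows were also searched on both strands for GGGA and CC with any 4 bases between. These letters were in windows of 8 members, which is 17.4% of the member windows, and 20.7% of all windows held them. Of these 8, 6 were measured and 0 differed by 2-fold, with log2 ratios from -0.23 to 0.44. With 5.84% of all measured genes at least 2-fold higher and 5.98% lower, a count of 0 among 6 is near the background. Members without a window, among them Mmp16 and Adam12, were not searched for these letters either.

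Of the ADAMs, Adam12 and Adam22 passed 2-fold, and a larger number lay below it. Adam12, a membrane protease of mesenchymal cells, osteoclast precursors and developing muscle, read 90.9 in Cpdm against 627 in wildtype, a 6.90-fold deficit. The second probe set read 36.7 against 174, or 4.75-fold lower. Adam22, which has no active zinc site and is best known as a receptor of the nervous system, read 65.0 against 22.1, or 2.94-fold higher. This wildtype signal was near the floor, so the fold is uncertain. The other Adam22 probe set read 26.1 against 10.7, the latter below the floor. With the floor at the 60th percentile the log2 ratio of Adam22 was 0.59, below 2-fold. Adam23, related to Adam22, went the other way at 49.4 against 87.8, or 1.78-fold lower, and Adam11 was near the floor at 19.1 and 24.7.

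The main sheddases, the ADAMs that release membrane proteins, were below 2-fold by their leading probe sets, and for some the direction differed between probe sets. Adam17, the enzyme that releases TNF, read 522 in Cpdm and 408 in wildtype, and its 3 probe sets had log2 ratios of 0.36, -0.40 and -0.78. Adam10, which cuts Notch receptors and many adhesion molecules, read 935 and 1018. Its second probe set was 1.60-fold lower in Cpdm. The 2 others lay under the Cpdm floor, at 6.02 against 55.9 and 6.29 against 25.6, or at least 3.02-fold and 1.39-fold lower. All 4 Adam10 probe sets thus went the same way, with a log2 ratio of -0.72 as the mean over probe sets. Adam9 had 1 probe set and read 1130.2 against 684, or 1.65-fold higher. Adam15, an ADAM of endothelial and other adherent cells, was 1.53-fold higher by a probe set of the _x_at type, which can bind related transcripts, and between 1.22-fold and 2.25-fold lower by its other 3. No direction is given for Adam15 or Adam17.

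The remaining measured ADAMs lay below 2-fold. Adam8, an ADAM of myeloid cells and osteoclasts, was near equal at 695 and 740.0. Adam33, an ADAM of mesenchymal cells, read 153 against 93.0, or 1.64-fold higher, and its second probe set read 29.6 against a wildtype value of 13.8, below the floor. Adam19 was 1.35-fold higher by 1 probe set and 1.30-fold lower by the other. Adam1a, below the floor in Cpdm at 15.0 and at 36.9 in wildtype, was at least 1.998-fold lower, just short of the count. Adam1b, Adam4 and Adam28 were between 1.15-fold and 1.41-fold lower, and Adam5 was at least 1.06-fold higher.

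**Figure D4:**
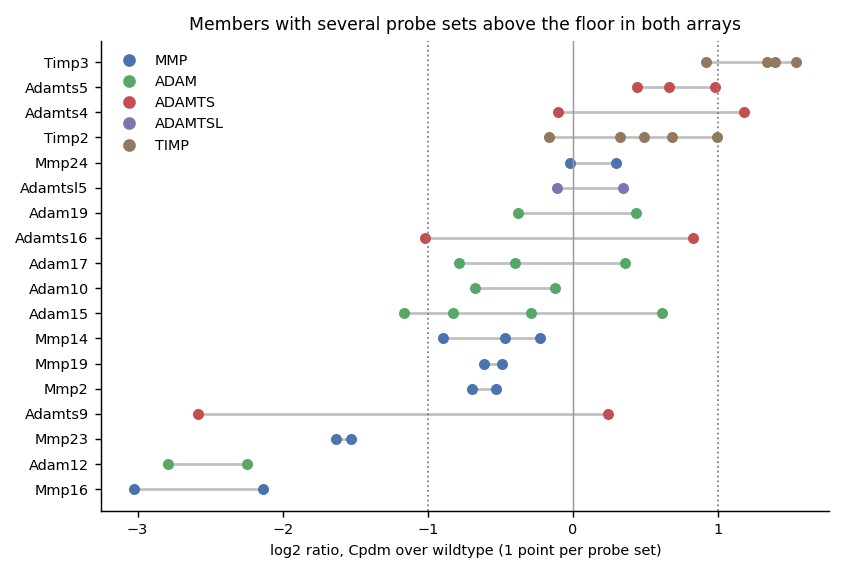
The log2 ratio of Cpdm over wildtype for each probe set at or above both floors, for the 18 members that have several, coloured by subfamily, with dotted lines at 2-fold. All probe sets of Mmp16, Adam12 and Mmp23 lie left of -1, all 4 of Timp3 lie right of 0, and those of Adamts9, Adamts16, Adamts4 and Adam15 lie on both sides of 0.

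Probe sets gave a check of direction for 18 members, those with several above the floor in both arrays. All pointed the same way for 9 of them, and the median SD among a member's probe sets was 0.39 log2 units. Of the 14 members past 2-fold, 7 had several such probe sets. For 4 of the 7, Mmp16, Adam12, Mmp23 and Timp3, all probe sets pointed the same way. For the other 3, Adamts9, Adamts16 and Adamts4, they did not.

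ADAMTS enzymes that cut versican and aggrecan, the large proteoglycans of loose matrix and cartilage, differed in both directions. Adamts4 read 74.5 in Cpdm against 32.9 in wildtype, or 2.26-fold higher, but 22.7 against 24.3 by its other probe set. Its log2 ratio was 0.79 with the floor at the 60th percentile and 0.54 as the mean over probe sets, both below 2-fold. Adamts5, the main aggrecanase of mouse cartilage, read 162 against 82.3, or 1.97-fold higher, with its other probe sets above the floor at 1.36-fold and 1.58-fold higher. Adamts1 was 1.82-fold higher at 75.2 against 41.4. These 3 were thus higher in Cpdm by their leading probe sets, with 1 of them past 2-fold. Adamts9 and Adamts15 went the other way. Adamts9, which also acts in the secretory pathway and at cilia, read 33.0 against 198, or 5.999-fold lower, while its second probe set was near equal at 43.3 and 36.6, and the mean over all its probe sets gave a log2 ratio of -0.86. Adamts15 read 24.5 against 67.5, or 2.76-fold lower, with a log2 ratio of -0.66 when the floor was at the 60th percentile.

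The other ADAMTS genes were equal or lower in Cpdm. Adamts6, a relative of Adamts10 with roles in microfibrils and cell junctions, read 34.8 against 72.7, or 2.09-fold lower. It lost 2-fold with the higher floor and with the mean over probe sets, at log2 ratios of -0.76 and -0.54. Adamts16 read 70.7 against 143.3, or 2.03-fold lower, and 41.7 against 23.4 by its other probe set, in the opposite direction. Its log2 ratio was -0.09 as the mean over probe sets. Adamts12, which cuts the cartilage protein COMP, and Adamts10, which acts on fibrillin microfibrils, were near equal, at 107 against 125 and 107 against 128. Adamts3, a procollagen N-propeptidase, and Adamts18 were above the floor in wildtype only, at 20.6 and 19.3.

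ADAMTS-like genes differed from one another. Adamtsl4, which binds fibrillin-1 and supports microfibrils, read 149 in Cpdm against 44.4 in wildtype, or 3.37-fold higher, by its only probe set. Adamtsl3 read 50.2 against 104.6, or 2.08-fold lower. Adamtsl1, or punctin, read 36.1 in Cpdm and 1.65 in wildtype, below the floor there, which is at least 1.93-fold higher. Adamtsl5 was near equal at 79.3 and 85.7.

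Among the tissue inhibitors Timp3 was the one past 2-fold. Timp3 is the TIMP that stays bound to the matrix and also blocks Adam17 and aggrecanases. It read 2109 in Cpdm against 726 in wildtype, a 2.91-fold excess, and its other 3 probe sets read 1982 against 755, 473 against 188, and 294 against 156. All 4 probe sets were thus higher in Cpdm, between 1.89-fold and 2.91-fold. The 250 bases before the Timp3 start are shown because this gene is the inhibitor with the clearest difference, and none of the 3 motifs was in its window, so no letters are in capitals.

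Timp3 (chr10:86300162-86300411, plus strand): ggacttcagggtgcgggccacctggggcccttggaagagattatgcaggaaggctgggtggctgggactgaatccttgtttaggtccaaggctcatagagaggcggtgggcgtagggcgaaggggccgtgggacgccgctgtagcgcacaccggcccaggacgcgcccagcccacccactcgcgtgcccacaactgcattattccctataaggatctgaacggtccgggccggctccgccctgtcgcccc

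The other TIMPs lay below 2-fold by each probe set at or above both floors. Timp1, a secreted inhibitor that many cells release, was near equal at 3097 and 3303 by its only probe set. These signals lay in the top 1% of the array, where signals can be compressed, which was not tested. Timp2, which with Mmp14 activates pro-MMP2, read 2429 against 1942, and its 5 probe sets above the floor ran from 1.12-fold lower to 1.99-fold higher. Of these 5, 4 were higher in Cpdm. Timp4 was near the floor at 37.6 against 20.5, or 1.84-fold higher, with its other probe set below the floor in both arrays.

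Proteins that activate or restrain these enzymes were compared as a list of 24 genes. Of 19 measured, 1, or 5.26%, was at least 2-fold higher and 4, or 21.1%, were lower, beside 5.84% and 5.98% of all measured genes, and the median log2 ratio was -0.26. The higher count is thus near the background. Pcsk6, or PACE4, a proprotein convertase that activates secreted precursors, was lowest at 48.1 in Cpdm against 826 in wildtype, or 17.2-fold lower. Pcsk5, a convertase of the same family, read 31.1 against 96.1, or 3.09-fold lower, while its other probe sets were near or below the floor and pointed both ways. Reck, a membrane inhibitor of Mmp2, Mmp9 and Mmp14, was 2.55-fold lower at 66.2 against 169.0. Bsg, or EMMPRIN, a surface protein that induces MMPs in neighbouring cells, was 2.42-fold lower at 1038 against 2512. Rhbdf2, or iRhom2, which carries Adam17 to the surface of myeloid cells, was 2.84-fold higher at 58.6 against 20.7, with the wildtype signal just above the floor. Below 2-fold, and named after their values were seen, were Rhbdf1, Furin and the tetraspanins. Rhbdf1, the relative of Rhbdf2, was near equal at 282 and 286. Furin, which cuts the prodomain of membrane-type MMPs, ADAMs and ADAMTS enzymes, was 1.24-fold higher at 148 against 119. The tetraspanins that carry Adam10 to the surface, Tspan5, Tspan10, Tspan14, Tspan15, Tspan17 and Tspan33, were between 1.02-fold and 1.73-fold lower by their leading probe sets. Papln, Plg and Lcn2 were below the floor in both arrays.

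Matrix proteins that ADAMTS enzymes and MMPs cut were lower more often than higher. Of 15 measured genes in a list of 18, 7, or 46.7%, were at least 2-fold lower and 2, or 13.3%, higher. The median log2 ratio was -0.70. Of all measured genes 5.98% were at least 2-fold lower and 5.84% higher. Comp, a cartilage and tendon protein cut by Adamts7 and Adamts12, was 15.4-fold lower at 54.9 against 845. Bcan, the proteoglycan brevican, was 11.1-fold lower at 43.2 against 481, by a probe set of the _x_at type, and at least 3.57-fold lower by another. The collagen genes Col1a1, at 1070.0 against 3222, Col2a1, at 85.4 against 232, and Col5a1, at 805 against 1882, were 3.01-fold, 2.72-fold and 2.34-fold lower. The small proteoglycans Dcn, at 954 against 2357, and Bgn, at 1690.0 against 4226, were 2.47-fold and 2.50-fold lower, with Dcn at 1.402-fold by another probe set. Vcan, the versican cut by Adamts1, Adamts4, Adamts5 and Adamts9, was 9.95-fold higher at 215 against 21.7, with the wildtype signal just above the floor, so this fold is uncertain. Of its other probe sets that reached a floor, those at 88.2 against 3.82 and 23.9 against 14.5 were at least 4.71-fold and 1.27-fold higher, and another was at least 1.02-fold lower. Col3a1 was 2.05-fold higher at 3079.7 against 1505, and 3.64-fold by its other probe set.

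Proteins shed by Adam10 and Adam17 were on the higher side. Of 19 measured genes in a list of 22, 8, or 42.1%, were at least 2-fold higher and 0 lower, with a median log2 ratio of 0.78. Of all measured genes 5.84% were at least 2-fold higher and 5.98% lower, so the count of 0 lower is near the background. Ereg, the growth factor epiregulin, was 4.98-fold higher at 208 against 41.8, and Hbegf, a growth factor of the same family, was 2.12-fold higher at 105 against 49.9 and 4.13-fold higher by its other probe set. The adhesion molecule Icam1 was 4.55-fold higher at 468 against 103. Vcam1, also an adhesion molecule, was 4.85-fold higher at 545 against 112, 2.26-fold higher at 230.1 against 102 by a second probe set, and at least 8.52-fold higher by another. The chemokine Cxcl16 was 2.38-fold higher at 578 against 243, and Tnf was 2.87-fold higher at 83.2 against 29.0. Tnfrsf1b, at 556 against 269.8, and Notch1, at 156 against 77.2, passed 2-fold by 1 probe set each and were within 1.08-fold by another. Transcript levels do not show whether any of these proteins was cut.

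**Figure D5:**
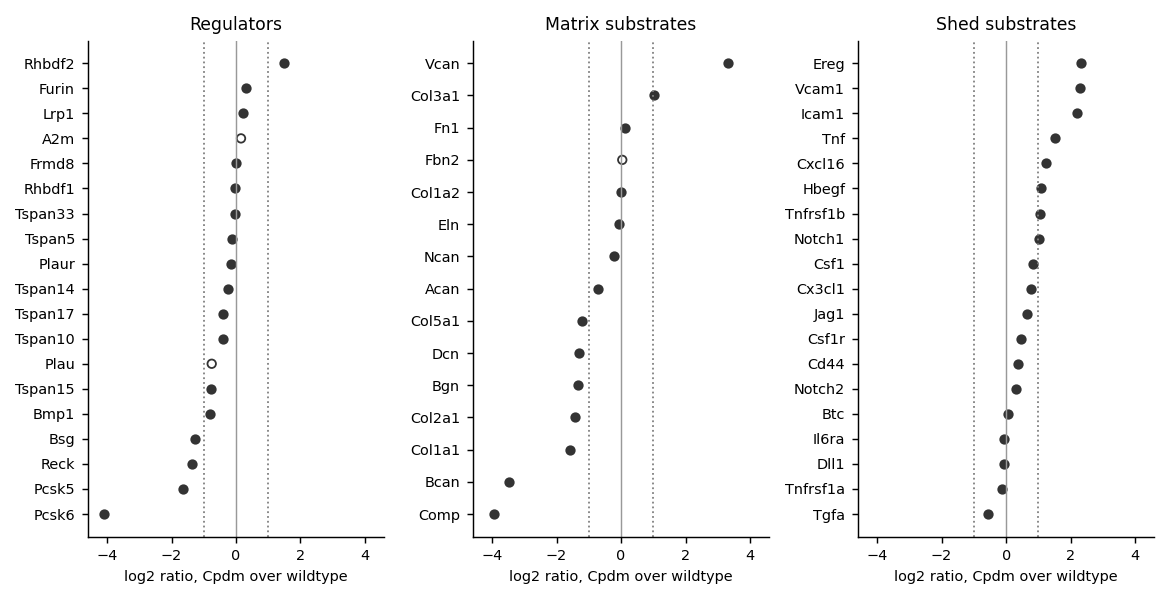
The log2 ratio of Cpdm over wildtype for the measured genes of the 3 lists around the proteases: regulators, matrix substrates and shed substrates, with dotted lines at 2-fold and open circles for lower bounds in size. Pcsk6 is lowest among regulators at -4.10, Comp lowest and Vcan highest among matrix substrates at -3.94 and 3.31, and no measured shed substrate lies below -1.

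Cell type markers also differed between the arrays. For the counts below, 5.84% of all measured genes were at least 2-fold higher and 5.98% at least 2-fold lower. A count of 1 among 4 or 6 markers is too small to be told from these shares. Of 8 measured osteoblast markers 7 were at least 2-fold lower in Cpdm, with a summed signal of 4933 against 14955, and none was below the floor in both arrays. Runx2 and Bglap, also in that list, had no probe set annotated to exactly 1 gene. Ibsp, the marker short of 2-fold, made up 3159 of the Cpdm sum and 4130 of the wildtype sum. Its other probe set had a log2 ratio of -2.63. Of 6 fibroblast and smooth muscle markers 2 were at least 2-fold higher and 0 lower, with sums of 8453 and 4171, and of 10 macrophage markers 3 were higher and 0 lower, with sums of 16616 and 12555. Osteoclast markers had a median log2 ratio of -0.01, with 1 of 6 measured at least 2-fold lower. They summed to 2034 in Cpdm and 3099 in wildtype, a gap that lay in Ctsk, at 969 against 1889.9, and Car2, at 16.5 against 182, while Acp5 and Atp6v0d2 were near equal, Oscar and Itgb3 were higher, and Calcr, Ocstamp and Dcstamp were below the floor in both. Of 6 measured neutrophil markers 5 were lower in Cpdm, 1 of them by at least 2-fold, with a median log2 ratio of -0.43. Their sums of 345 and 334 were near equal because Csf3r went the other way, at 193 against 109.9, and Elane, Camp and Cxcr2 were below the floor in both. Chondrocyte markers summed to 164 and 314, with 1 of 4 lower and Col10a1 below the floor, and mast cell and basophil markers to 214 and 151, with 1 of 4 higher and 1 lower and Mcpt4 and Fcer1a below the floor. Of 5 endothelial markers Kdr alone was measured, and Pecam1, Cdh5, Tek and Emcn were below the floor in both. Col1a1, Col2a1, Acan and Csf1r stand both in a marker list and in a substrate list. The part of cell composition in the regulator and substrate lists was not tested either.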

How the data were processed

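The authors deposited 1 table of MAS5 signal intensity with a column per array. The submitters' processing notes list the software GCOS 1.4 and the MAS5 method. The sources used here do not give background settings, detection calls or a scaling target. Trimmed by 2% of probe sets at each end, the mean intensity was 100.0 in either array. The deposited signals were not rescaled. The floor was the 40th percentile of the 45037 non-control probe sets of each array, and where 1 array lay below it the fold is a lower bound. Probe sets were named through the platform annotation, and the Entrez identifiers of all 70 members matched a current RefSeq gene record with the same symbol.

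Named with both signals are members at least 2-fold different, all TIMPs and the 3 brightest measured members of each subfamily, and of the regulator and substrate lists those past 2-fold. Other members given with signals, such as Mmp3, Mmp8, Mmp9, Adam23 and Adamts1, were added after their values were seen, to fill out a role group. The members, gene lists, motifs and rules were chosen with earlier results of these data known. Alternatives were no floor, a floor at the 60th percentile, quantile and median scaling, the mean over probe sets, leaving out _s_at and _x_at probe sets, and a 1.5-fold rule. Motif search of member proteins was planned and not run, since no protein sequences were used here. Promoter windows came from RefSeq, GRCm38.p6. The number of arrays limits the precision. The gene summary was tested on simulated arrays, with changes larger than 2-fold placed in bright genes and with less noise than the probe set SD given above. That test does not cover members near the floor or folds near 2-fold. Python 3.11.15, numpy 2.4.6, pandas 2.3.3 and matplotlib 3.10.9 were used.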

Additional observations from a re-analysis of the deposited data

How the results depend on the processing

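Of the 14 members past 2-fold, 7 stayed past it in the same direction under every alternative that measured them: Mmp16, Adam12, Mmp23, Adamtsl3, Adamtsl4, Timp3 and Mmp10, of which Mmp10 was not measured with the floor at the 60th percentile. Adamtsl3, Adamtsl4 and Mmp10 have 1 probe set each, above both floors. Dropping the floor, averaging over probe sets or leaving out _s_at and _x_at probe sets therefore could not change their ratios. No member past 2-fold changed sign. Lower members counted 6 to 12 under the alternatives beside 9, and the median of all members stayed between -0.12 and -0.08. Higher members were 5, and counted 2 with the floor at the 60th percentile, where 35 members were measured, and 13 by the 1.5-fold rule. With that higher floor the median log2 ratio was 0.36 for ADAMs and -0.11 for ADAMTS-like genes, which turned both signs. Without a floor it was -1.02 for ADAMTS genes and 0.82 for ADAMTS-like genes. Quantile and median scaling moved the median of all genes by 0.01 and 0.02 and turned no subfamily median. No replicate could be left out. Signals near the floor limit the folds of members such as Mmp3, Mmp10, Timp4 and Adam22.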

Other observations

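Adamdec1, an ADAM-like gene of macrophages and dendritic cells whose symbol falls outside the naming rule, read 25.999 in Cpdm against 13.3 in wildtype, which is below the floor and makes it at least 1.39-fold higher. A further 5 probe sets are annotated to a member together with another gene and were left out. The 4 shared by Adam1a and Mapkapk5 read 20.1 against 8.61, 42.6 against 36.8, 64.9 against 100.5 and 57.6 against 57.7 in Cpdm and wildtype. The 1 shared by Adam6a and Adam6b, which lie side by side on chromosome 12, read 19.1 against 36.7, while the probe sets of each gene alone were below the floor in both arrays.

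Adamts1 and Adamts5 are also neighbours, on chromosome 16, and were 1.82-fold and 1.97-fold higher in Cpdm. Of the neighbours Adamts15 and Adamts8 on chromosome 9, Adamts15 was 2.76-fold lower and Adamts8 reached neither floor. In the chromosome 8 run of Adam18, Adam3, Adam5, Adam32 and Adam9, only Adam5 and Adam9 were measured, with Adam5 near the floor.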
